A study of Homo sapiens with 8 samples.

Results

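The 76 genes described here encode proteins of the mitochondrial ribosome. They are every gene symbol in the count tables that consists of MRPL or MRPS, a number and at most 1 letter A, B or C, among 23710 symbols in all. Of these, 47 carry the prefix MRPL and 29 the prefix MRPS. RNA of a human lymphoblastoid cell line, which is a line of B cells immortalised with Epstein-Barr virus, was sequenced as poly(A)-selected mRNA in 8 libraries. The 4 groups of 2 libraries each were control cells, cells after 24 h in 5 µM hexavalent chromium, cells labelled 3 days post treatment and cells labelled 7 days post treatment, and the labels give the treatment itself as 24 h long. The series' design text counts its time points from the start of exposure instead, so the day from which 3 and 7 days were counted is not settled. All groups were of 1 cell line, and no unexposed cells were sampled at the later times, so exposure and time in culture cannot be told apart. The labels call the 2 libraries of a group biological replicates without saying that they came from separate cultures, so the p-values below measure the spread between these libraries only. In RNA from whole cultures, fewer cells with a transcript and less of it per cell cannot be told apart.

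The mitochondrial ribosome translates the few mRNAs of the mitochondrial genome, which encode core subunits of the respiratory chain and of ATP synthase. Its RNAs are made inside the organelle, whereas all of its proteins are encoded in the nucleus, made in the cytosol and imported. Many of these proteins have a counterpart in the bacterial ribosome and others were added in the mitochondrial lineage. The prefix of a symbol does not always give the subunit in which the protein sits, and MRPS18A and MRPS30 belong to the large subunit. By the class lists used here, 49 of the genes belong to the large subunit, 29 of them with a bacterial counterpart and 20 without. The small subunit has 27, 16 with a counterpart and 11 without. One of the 11, MRPS36, is also known as a subunit of the 2-oxoglutarate dehydrogenase complex. The lists place MRPL47, MRPS18A and MRPS18B among the genes without a counterpart and MRPL55 among those with one, and homology was not checked gene by gene. Hexavalent chromium enters cells as chromate and is reduced there to forms that bind DNA and protein.

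Each library held 9478459 to 11110830 counts assigned to genes, and 24052 to 36643 of them, or 0.251% to 0.352%, belonged to the mitochondrial ribosomal protein genes. The cells carried B cell markers: all 12 were tested and 11 reached a level of 10 CPM (counts scaled to TMM-adjusted library size) in at least 1 library. All 5 erythroid markers were at 0. The filter on low counts was passed by 1 of 9 T or NK cell markers, 1 of 8 myeloid markers and 2 of 8 stromal or epithelial markers. Of these, only the myeloid marker reached 10 CPM. For the summed level of the B cell markers, CPM were taken over all gene counts of a library, without the TMM adjustment. This sum was 2388 to 2980 CPM in control cells, 2383 to 3199 CPM at 24 h, 1696 to 2057 CPM at 3 days and 1708 to 1995 CPM at 7 days. Replicate 1 at 3 days and replicate 1 at 7 days stood apart from the other 6 libraries. Reads assigned to no feature made up 39.4% and 36.5% of the reads in these libraries, against 44.4% to 51.5% in the others. Because several results below rest on these libraries, the members' medians and the fold changes of MRPL11 and MRPS27 are also given without them.

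Of the 76 genes, 75 passed the filter and were tested. MRPS24, a small subunit protein, had 0 counts in all 8 libraries, as did the table's entry for the read-through transcript of URGCP and MRPS24, so its level is only known to be listed at 0. Levels of the tested genes, as the mean CPM of 8 libraries, ran from 0.939 CPM for MRPL54 to 266 CPM for MRPL3. Per kilobase of transcript the median gene stood at 25.9 CPM. MRPL3, a large subunit protein near the peptidyl transferase centre, had the highest level per kilobase, 239 CPM, with a range over the 8 libraries of 198 to 265. MRPL19 followed at 167 (range 144 to 192) and MRPL42 at 139 (range 123 to 167). MRPL3 was above MRPL19 in 8 of 8 libraries and MRPL19 above MRPL42 in 7 of 8. MRPL49 and MRPS23 came next by mean, at 131 and 107 CPM per kilobase, with wider ranges of 85.6 to 242 and 86.0 to 152, and their order within a library was not steady, with MRPL49 the higher in 4 of 8.

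At the other end, MRPL54, a protein near the large subunit stalk, had 1.68 CPM per kilobase with a range of 0.959 to 2.77. MRPS26, a small subunit protein without a bacterial counterpart, had 2.38 CPM per kilobase with a range of 0.892 to 3.92. MRPS26 was above MRPL54 in 6 of 8 libraries, and values of both genes rest on few reads. MRPL24, which lies near the exit tunnel, was among the 3 lowest by CPM. MRPL24 had 5.34 and 5.80 CPM at 3 days, 5.85 and 5.33 CPM at 7 days, against 6.68 and 3.99 CPM in control cells. The span of another gene overlaps that of 18 members in the RefSeq annotation, among them MRPL14 (TMEM63B), MRPL24 (HDGF) and MRPL49 (SYVN1), and with no strand setting given for the counts, reads of such pairs cannot be told apart. Pseudogenes of MRPL42, MRPL45 and MRPS31 have entries of their own with at most 37, 127 and 208 counts, and since the counting method is not given, the counts of these 3 genes are uncertain.

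Cells exposed for 24 h showed no mitochondrial ribosomal protein gene past the threshold, an adjusted p under 0.05 in the quasi-likelihood test of edgeR with Benjamini-Hochberg adjustment over 12536 genes. The same test called 0.0% of all genes, and 0 of the 75 members had an unadjusted p under 0.05, against 0.175% of all genes. DESeq2 and limma-voom called none of the members either. The median log2 fold change of the members, 24 h over control, was -0.04, beside 0.00 over all genes tested, with 32 members above 0 and 43 below, where 50% of all genes were above 0. Both 24 h libraries lay above both control libraries for 5 members, against 11.4% of all genes, and below both for 15, against 12.5% of all genes.

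Among the members without overlap at 24 h, MRPL53, which sits near the large subunit stalk, had the smallest p. MRPL53 stood at 10.5 and 10.8 CPM at 24 h, against 15.9 and 13.3 CPM in control cells. The log2 fold change was -0.46 ± 0.26 (SE), with an adjusted p of 1.00. MRPL12, a stalk protein that also binds the mitochondrial RNA polymerase, had 6.13 and 9.21 CPM at 24 h, against 11.5 and 9.32 CPM in control cells. MRPL17, a large subunit protein with a bacterial counterpart, had 9.85 and 12.2 CPM at 24 h, against 12.6 and 13.9 CPM in control cells. MRPS5, a small subunit protein at the mRNA entry site, had 50.4 and 49.4 CPM at 24 h, against 62.6 and 61.4 CPM in control cells. For these 4 genes the 24 h libraries were the lower ones, by margins that did not pass the test.

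The opposite order was seen for MRPL20 and MRPL14. MRPL20, a large subunit protein with a bacterial counterpart, had 33.0 and 37.4 CPM at 24 h, against 32.2 and 21.7 CPM in control cells. MRPL14, which lies at the interface of the subunits, had 10.4 and 11.3 CPM at 24 h, against 9.58 and 6.86 CPM in control cells. Their log2 fold changes were 0.38 ± 0.25 and 0.39 ± 0.29 (SE), each with an adjusted p of 1.00. In both cases control replicate 2 was the lowest library and control replicate 1 lay close to the 24 h values.

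At 3 days, members were mostly higher than in control cells, and none passed the threshold. The median log2 fold change of the 75 members was 0.33, beside 0.01 over all genes, with 68 members above 0 and 7 below, where 51.2% of all genes were above 0. The test called 0 members and 0.0% of all genes, and the smallest adjusted p among the members was 0.843. An unadjusted p under 0.05 was reached by 4 members, all higher at 3 days, against 5.29% of all genes and 2.15% in that direction. Both 3-day libraries lay above both control libraries for 23 members, against 16.7% of all genes, and below both for 2, against 17.2% of all genes. Without replicate 1 at 3 days the median was 0.05, without replicate 2 it was 0.60, and without control replicate 2 it was 0.22.

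MRPL11, which forms the base of the large subunit stalk where translation factors bind, had the smallest p at 3 days. MRPL11 had 31.5 and 23.8 CPM at 3 days, against 17.2 and 13.2 CPM in control cells. Its log2 fold change was 0.86 ± 0.33 (SE), with an adjusted p of 0.843 in the edgeR test. MRPL10, another protein of the stalk, had 50.4 and 29.5 CPM at 3 days, against 25.2 and 16.5 CPM in control cells. For MRPL10 replicate 2 at 3 days lay a little above the higher control library and replicate 1 far above both. MRPL14 had 15.8 and 11.8 CPM at 3 days, against 9.58 and 6.86 CPM in control cells. MRPL20 had 41.1 and 38.8 CPM at 3 days, against 32.2 and 21.7 CPM in control cells. In MRPL20 the 2 libraries at 3 days were close to each other, and the wider spread was between the controls. MRPL30, a large subunit protein with a bacterial counterpart, had 76.2 and 64.2 CPM at 3 days, against 54.3 and 46.1 CPM in control cells. MRPS18C, a small subunit protein, had 17.7 and 16.8 CPM at 3 days, against 12.6 and 9.21 CPM in control cells. The log2 fold changes of these 6 genes ran from 0.48 ± 0.23 for MRPL30 to 0.94 ± 0.41 for MRPL10 (SE), each with an adjusted p of 0.843 in the edgeR test.

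At 7 days members were again mostly higher than in control cells, and none passed the threshold. Both comparisons use the same control libraries. The median log2 fold change of the members, 7 days over control, was 0.29, beside 0.00 over all genes, with 66 members above 0 and 9 below, where 50.1% of all genes were above 0. The test called 0 members and 0.0% of all genes, the smallest adjusted p among the members was 0.851, and 2 members, both higher at 7 days, had an unadjusted p under 0.05, against 4.94% of all genes and 1.85% in that direction. Both 7-day libraries lay above both control libraries for 25 members, against 16.6% of all genes, and below both for 1, against 17.9% of all genes. Without replicate 1 at 7 days the median was 0.04, and without replicate 2 it was 0.53.

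MRPL39, a large subunit protein without a bacterial counterpart, had 107 and 63.7 CPM at 7 days, against 49.0 and 50.5 CPM in control cells. Its log2 fold change was 0.78 ± 0.32 (SE), with an adjusted p of 0.851 in the edgeR test. For MRPL39 both libraries at 7 days were above the controls, and replicate 1 was farther above replicate 2 than replicate 2 was above the controls. MRPL11 had 34.0 and 19.5 CPM at 7 days, against 17.2 and 13.2 CPM in control cells. MRPL22, which lines the tunnel through which the new peptide leaves, had 38.1 and 22.7 CPM at 7 days, against 18.9 and 13.2 CPM in control cells. MRPL23, also near the tunnel exit, had 73.8 and 40.6 CPM at 7 days, against 34.9 and 29.4 CPM in control cells. In these 3 genes the first library at 7 days was far above the second, and the second was above both controls. The span of MRPL23 overlaps H19 and MRPL23-AS1 in the RefSeq annotation, and since the strand setting of the counts is not given, its reads are uncertain, although MRPL23-AS1 itself is listed at 0 in all 8 libraries. MRPL30 had 78.7 and 60.2 CPM at 7 days, against 54.3 and 46.1 CPM in control cells. MRPL54 had 1.55 and 1.51 CPM at 7 days, against 0.615 and 0.717 CPM in control cells. Its log2 fold change of 1.19 ± 0.60 (SE) was the largest among the members at 7 days and had an adjusted p of 0.851, at a level near 1 CPM.

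**Figure D1:**
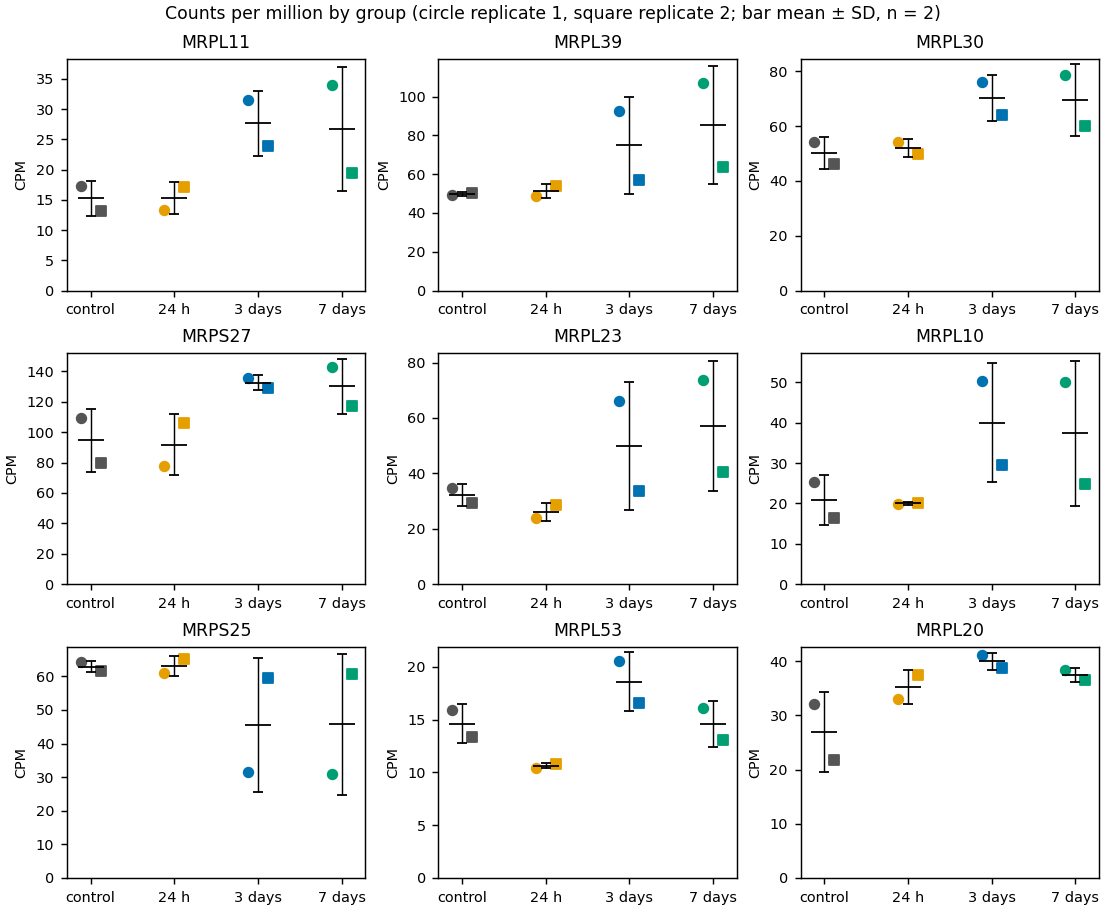
Level of 9 mitochondrial ribosomal protein genes, in CPM, in each of the 8 libraries, with the 4 groups in order of time and each group's 2 replicates marked separately. MRPL39 and MRPL23 are highest in replicate 1 at 3 and 7 days, MRPS27 and MRPL30 are above all earlier libraries in all 4 later ones, and MRPS25 is lowest in replicate 1 at 3 and 7 days.

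No member passed the threshold between 7 and 3 days. The median log2 fold change of the members, 7 days over 3 days, was -0.01, with 36 members above 0 and 39 below, where 49.6% of all genes were above 0. The edgeR test called 0.0% of all genes, and 0 members had an unadjusted p under 0.05, against 0.247% of all genes. Both 7-day libraries lay above both 3-day libraries for 4 members, against 5.24% of all genes, and below both for 3, against 6.41% of all genes. Compared within each replicate number, 7 days lay above 3 days in both replicates for 22 of 75 members, against 25.2% of all genes, and below in both for 19, against 25.4%. MRPL39 was one of the 22, with 107 and 63.7 CPM at 7 days, against 92.7 and 57.1 CPM at 3 days. With the replicate number as a block, the test of 7 over 3 days called 0 genes. MRPL53 was one of the 3, with 16.1 and 13.1 CPM at 7 days, against 20.6 and 16.6 CPM at 3 days. MRPL54 was one of the 4, with 1.55 and 1.51 CPM at 7 days, against 1.23 and 0.535 CPM at 3 days.

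The contrast of the later groups, 3 and 7 days, with the earlier ones, control and 24 h, uses all 8 libraries. The median log2 fold change of the members was 0.36, beside 0.01 over all genes, with 69 members above 0 and 6 below, where 50.5% of all genes were above 0. No member passed the threshold, the test called 0.00798% of all genes, and the smallest adjusted p among the members was 0.261. An unadjusted p under 0.05 was reached by 11 members, all higher in the later groups, against 14.2% of all genes and 6.94% in that direction. All 4 later libraries lay above all 4 earlier ones for 6 members, against 5.93% of all genes. They lay below for 1 member, MRPS25, against 7.43% of all genes. The median was 0.19 without replicate 1 at 3 days and 0.22 without replicate 1 at 7 days. When any difference among the 4 groups was tested at once, 0 members and 0.0% of all genes passed the threshold, and 1 member, MRPL11, had an unadjusted p under 0.05, against 3.56% of all genes.

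The 6 members whose later libraries were all higher were MRPL11, MRPL39, MRPS27, MRPL30, MRPL14 and MRPL40. MRPL11 had 31.5, 23.8, 34.0 and 19.5 CPM in the later libraries, against 17.2, 13.2, 13.4 and 17.1 CPM in the earlier ones. Its log2 fold change was 0.83 ± 0.24 (SE), with an adjusted p of 0.261 in the edgeR test. Without replicate 1 at both later times the log2 fold change of MRPL11 was 0.50, with an adjusted p of 0.405. MRPS27, a pentatricopeptide repeat protein of the small subunit, had 136, 129, 143 and 117 CPM in the later libraries, against 109, 79.9, 77.6 and 106 CPM in the earlier ones. Here replicates 1 and 2 were near each other at 3 days and farther apart at 7 days. The log2 fold change was 0.49 ± 0.18 (SE), and it was 0.40 without replicate 1 at both later times. MRPL30 had 76.2, 64.2, 78.7 and 60.2 CPM in the later libraries, against 54.3, 46.1, 54.3 and 49.7 CPM in the earlier ones. MRPL40, a large subunit protein without a bacterial counterpart, had 20.9, 16.7, 17.6 and 19.5 CPM in the later libraries, against 12.9, 15.2, 12.5 and 15.9 CPM in the earlier ones. For MRPL40 the gap between the lowest later and the highest earlier library was small. MRPL39 had 92.7, 57.1, 107 and 63.7 CPM in the later libraries, against 49.0, 50.5, 48.9 and 54.0 CPM in the earlier ones. MRPL39 thus had 2 high libraries, both numbered 1, and 2 that lay just above the earlier range.

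By subunit, the median log2 fold change, later over earlier, was 0.40 for 49 large subunit genes and 0.26 for 26 small subunit genes. Large subunit genes with a bacterial counterpart had a median of 0.36 and those without had 0.42. Small subunit genes with a bacterial counterpart had 0.13 and those without had 0.30. In replicate 2 the medians over control were 0.04 and 0.08 at 3 and 7 days for the large subunit and 0.07 and 0.01 for the small, against 0.64 and 0.58 for the large and 0.47 and 0.37 for the small in replicate 1, so the class values rested on replicate 1 and the order of the subunits turned round in replicate 2 at 3 days. The differences between these classes were not tested. Within the members the log2 fold change showed a weak correlation with transcript GC content (r = 0.30 over 75 genes) and almost none with the log2 of transcript length (r = -0.06), and these are across genes measured in the same libraries. With a smooth trend on transcript length and GC content over 11564 genes removed, the median of the members was 0.28 for later over earlier, 0.25 for 3 days and 0.26 for 7 days over control.

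**Figure D2:**
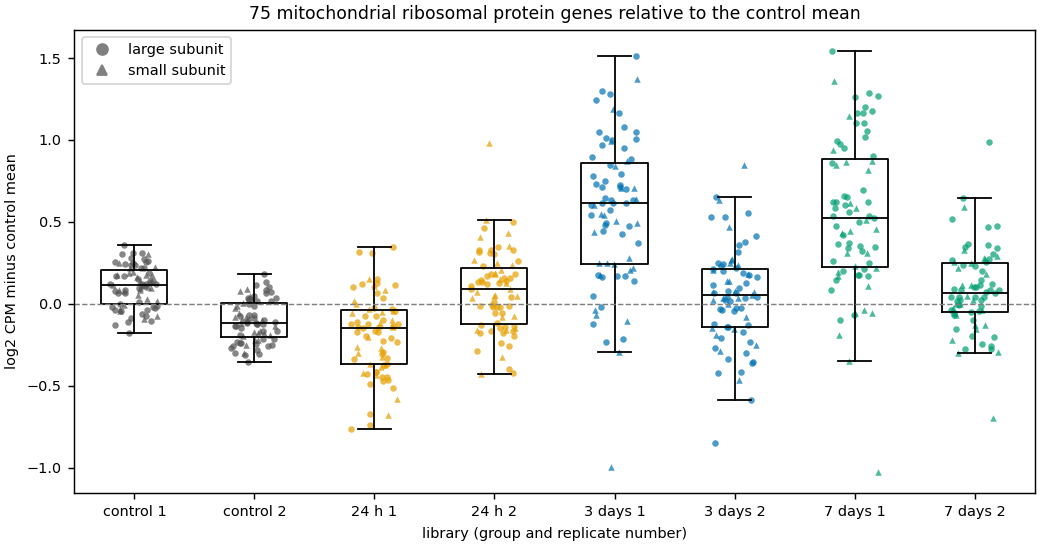
Log2 CPM minus the mean of the 2 control libraries for the 75 tested genes, in each of the 8 libraries. The median is 0.61 at 3 days and 0.53 at 7 days in the libraries numbered 1, and lies between -0.15 and 0.12 in the other 6 libraries.

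Library by library, the higher values at 3 and 7 days were those of replicate 1. The median over the members of log2 CPM minus the control mean was 0.12 and -0.12 in the control libraries, -0.15 and 0.09 at 24 h, 0.61 and 0.06 at 3 days, and 0.53 and 0.06 at 7 days. The same median over all genes lay between -0.02 and 0.01 in every library. Of 75 members, 66 in replicate 1 and 46 in replicate 2 at 3 days were above the control mean, and 67 and 47 at 7 days, whereas 56 and 19 were above it in the control libraries themselves. Replicate 2 at both later times therefore lay within the range of the control libraries by this median. Without replicate 1 at both later times the median log2 fold change was 0.06 for 3 days, 0.04 for 7 days and 0.08 for later over earlier.

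Both libraries numbered 1 at the later times were above the other 6 for 52 of 75 members, against 27.1% of all genes. They were below the other 6 for 2 members, MRPS25 and MRPS28, against 26.4% of all genes. Replicate 2 at both later times lay above the 4 earlier libraries for 7 members and below them for 1, against 14.5% of all genes in each direction. The number of members above in replicate 1 was 19 of 29 and 15 of 20 for large subunit genes with and without a bacterial counterpart, and 9 of 15 and 9 of 11 for small subunit genes with and without one. The 2 libraries also had the lowest share of reads under no feature, as given above, and lower B cell marker levels. The median over the 12 B cell markers of log2 CPM minus the control mean was -0.66 in each of them, -0.14 and -0.16 in replicate 2 at 3 and 7 days, and between -0.30 and 0.29 in the earlier libraries. The part of these in the levels of the members was not tested.

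**Figure D3:**
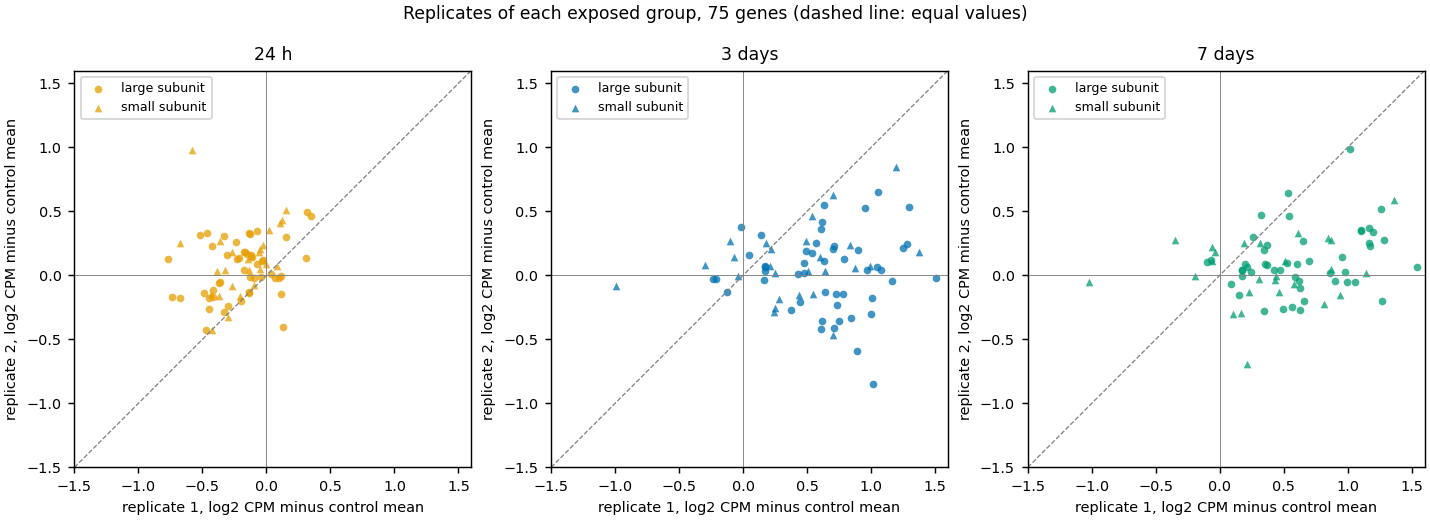
Log2 CPM minus the control mean of each tested member in replicate 1 and in replicate 2, at 24 h, at 3 days and at 7 days. At 3 and 7 days members lie mostly on the side where replicate 1 is higher, with MRPS25 on the opposite side.

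Some members separated the replicates widely. MRPL27, a large subunit protein with a bacterial counterpart, had 14.6 and 4.91 CPM at 3 days and 14.9 and 5.23 CPM at 7 days, against 6.24 and 3.99 CPM in control cells. Its log2 fold change, later over earlier, was 0.95 ± 0.46 (SE), the largest among the members, with an adjusted p of 0.373 in the edgeR test. MRPS12, which lies at the decoding centre, had 19.8 and 8.57 CPM at 3 days and 16.9 and 7.64 CPM at 7 days, against 8.52 and 6.65 CPM in control cells. MRPL49 had 117 and 50.4 CPM at 3 days and 125 and 45.3 CPM at 7 days, against 50.4 and 53.6 CPM in control cells. For MRPL49, replicate 2 at both times was at or below the lower control library, so the fold changes of MRPL49 rested on replicate 1. MRPL45, which anchors the ribosome to the inner membrane at the tunnel exit, had 215 and 113 CPM at 3 days and 249 and 129 CPM at 7 days, against 128 and 94.7 CPM in control cells. MRPS2, a small subunit protein with a bacterial counterpart, had 57.2 and 32.4 CPM at 3 days and 59.97 and 27.9 CPM at 7 days, against 33.0 and 29.4 CPM in control cells. In MRPL45 and MRPS2 the second library of each later group was close to the controls.

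Other members were nearly level over the libraries. MRPL3 had 286 and 266 CPM at 3 days and 295 and 267 CPM at 7 days, against 286 and 226 CPM in control cells. MRPL42, a large subunit protein without a bacterial counterpart, had 117 and 153 CPM at 3 days and 113 and 129 CPM at 7 days, against 113 and 124 CPM in control cells. MRPL19 had 103 and 119 CPM at 3 days and 114 and 131 CPM at 7 days, against 107 and 138 CPM in control cells. The log2 fold changes of MRPL3, MRPL42 and MRPL19, later over earlier, were 0.14 ± 0.16, -0.00 ± 0.15 and -0.09 ± 0.15 (SE). The 3 genes highest per kilobase were thus among those with small differences and small errors.

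MRPS25 ran the other way. This small subunit protein without a bacterial counterpart had 31.5 and 59.5 CPM at 3 days and 30.8 and 60.6 CPM at 7 days, against 64.1 and 61.7 CPM in control cells and 60.9 and 65.3 CPM at 24 h. Replicate 2 at both later times was just below the lowest earlier library, and replicate 1 was far below it. The log2 fold change, later over earlier, was -0.47 ± 0.27 (SE), with an adjusted p of 0.432 in the edgeR test. The span of MRPS25 overlaps NR2C2 in the RefSeq annotation. MRPS28 was below the other 6 libraries by a small margin, with 28.3 CPM in replicate 1 at 3 days and 33.4 CPM in replicate 1 at 7 days, where the control libraries had 33.6 and 35.8 CPM.

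**Figure D4:**
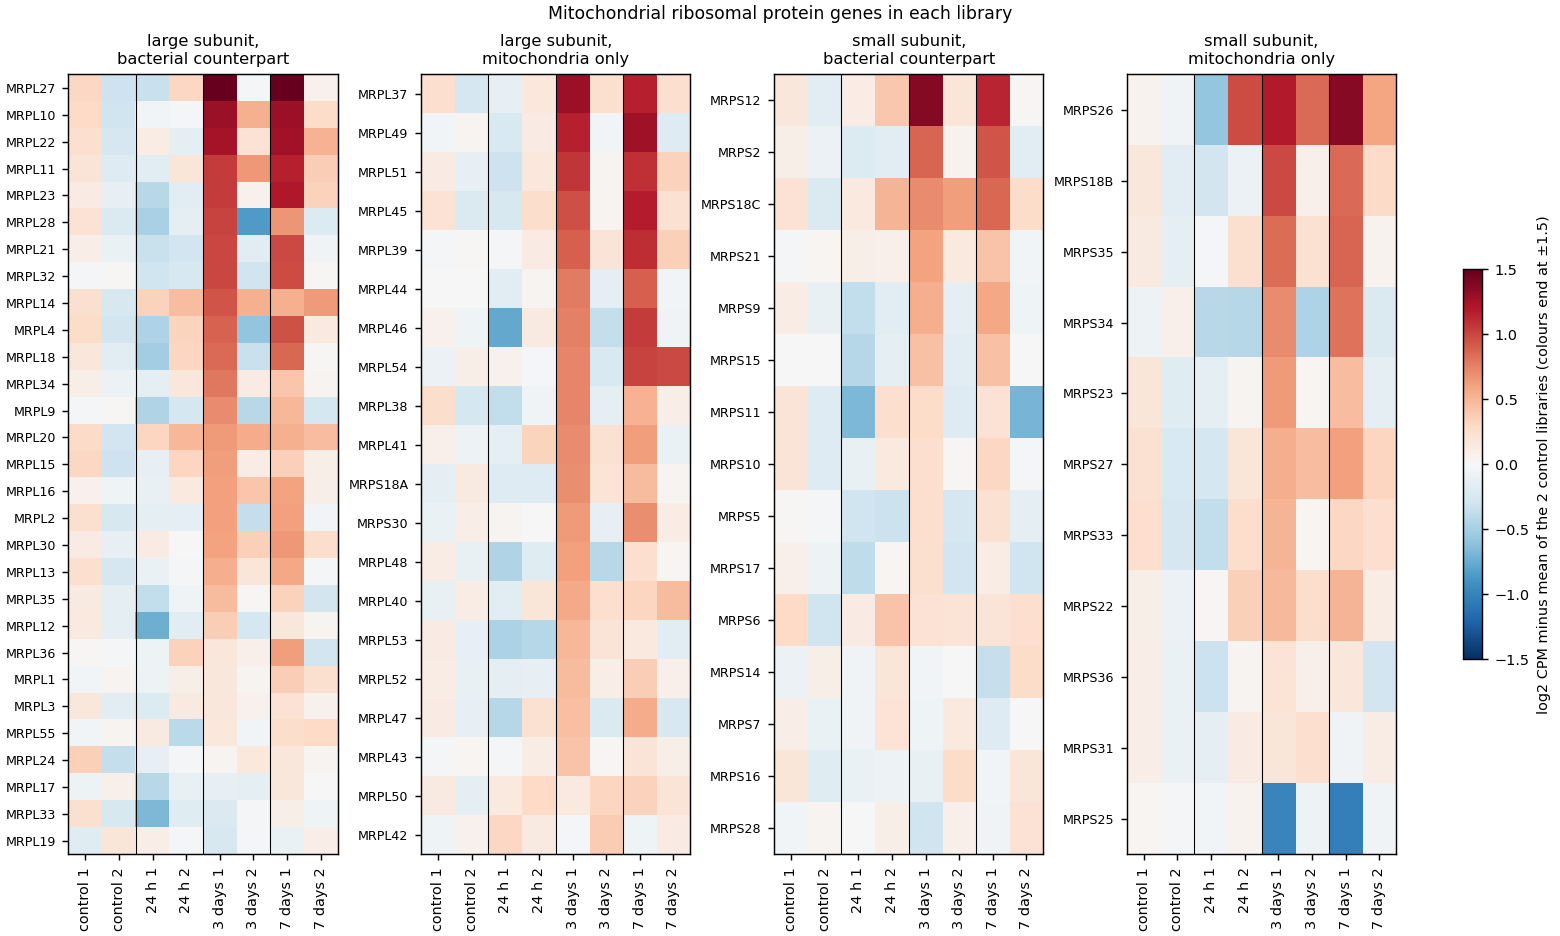
Log2 CPM minus the mean of the 2 control libraries for each of the 75 tested genes (rows, grouped by subunit class) in the 8 libraries (columns, in order of time). Replicate 1 at 3 and at 7 days is above the other 6 libraries for 52 genes.

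The MRPS18 paralogs are homologues of a single bacterial protein and do not share a ribosome position: MRPS18A sits in the large subunit, MRPS18B and MRPS18C in the small. In the class counts above, MRPS18A and MRPS18B nonetheless stand among the genes without a bacterial counterpart, and MRPS18C among those with a counterpart. Their levels were 12.3, 22.3 and 21.9 CPM per kilobase for MRPS18A, MRPS18B and MRPS18C, with ranges of 9.50 to 17.9, 15.0 to 36.1 and 13.8 to 29.7 over the 8 libraries. MRPS18A was below both other paralogs in 8 of 8 libraries, whereas MRPS18B was above MRPS18C in 5 of 8, so the order of these is not resolved. MRPS18A had 14.4 and 10.2 CPM at 3 days and 12.3 and 9.05 CPM at 7 days, against 7.99 and 9.62 CPM in control cells. MRPS18B had 55.3 and 29.2 CPM at 3 days and 50.03 and 34.0 CPM at 7 days, against 31.1 and 24.7 CPM in control cells. MRPS18C had 17.7 and 16.8 CPM at 3 days and 19.8 and 13.1 CPM at 7 days, against 12.6 and 9.21 CPM in control cells. The log2 fold changes, later over earlier, were 0.48 ± 0.22, 0.69 ± 0.24 and 0.46 ± 0.22 (SE), with adjusted p of 0.361, 0.310 and 0.368 in the edgeR test. In each of the 3 the 2 highest libraries were those numbered 1 at the later times, with the widest gap to the next library in MRPS18B. The span of MRPS18A overlaps RSPH9.

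Promoter sequences of the members were searched for 4 motifs, none of which was in all members. RefSeq promoters of GRCh38.p14, from 250 bases before to 50 after the start, were matched for 67 of the 76 genes by symbol. The ETS motif CCGGAAG, on either strand, was in 28 of 67 members (41.8%) and in 10.7% of all 27305 promoters of the same length. The YY1 motif AAGATGGCG was in 13 members (19.4%) and in 1.85% of all promoters. The NRF1 motif GCGCATGCG was in 3 members (4.48%) and in 2.10% of all. A form with a further C at its 3′ end, 10 bases long, was in 1 member (1.49%) and in 1.36% of all. The CCAAT box, CCAAT, was in 20 members (29.9%) and in 35.7% of all. The last 3 letters of the ETS motif are the first 3 of the YY1 motif, so that 1 stretch can hold both. The motifs were searched exactly and on both strands, 20 members held none of the 4, and a match is a description of letters. The set of all promoters includes genes that were not tested here, and shares among the tested genes alone were not counted.

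The promoters below are those of 3 genes whose later libraries were all higher (MRPL30, MRPL40 and MRPS27), of MRPL22, which was highest in replicate 1 at both later times, and of MRPS25, which was lower. Capitals mark each motif found, and each is read 5′ to 3′ on the strand of the gene. MRPL30 (chr2:99180934-99181233, plus strand) holds the ETS motif in reverse, MRPL40 (chr22:19432295-19432594, plus strand) holds it forward close to the start, MRPL22 (chr5:154940823-154941122, plus strand) holds the NRF1 motif before and the YY1 motif after the start, and MRPS27 (chr5:72320191-72320490, minus strand) holds a CCAAT box. MRPS25 (chr3:15065266-15065565, minus strand) holds none of the 4 motifs in this window. The other genes whose later libraries were all higher, MRPL11, MRPL14 and MRPL39, also hold none of the 4 and are not shown.
MRPL30: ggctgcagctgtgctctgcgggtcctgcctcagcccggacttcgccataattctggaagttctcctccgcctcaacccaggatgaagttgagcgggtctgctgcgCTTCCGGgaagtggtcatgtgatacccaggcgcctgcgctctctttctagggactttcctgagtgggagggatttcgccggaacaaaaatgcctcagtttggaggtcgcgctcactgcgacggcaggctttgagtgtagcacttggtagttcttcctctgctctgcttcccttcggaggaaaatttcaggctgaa
MRPL40: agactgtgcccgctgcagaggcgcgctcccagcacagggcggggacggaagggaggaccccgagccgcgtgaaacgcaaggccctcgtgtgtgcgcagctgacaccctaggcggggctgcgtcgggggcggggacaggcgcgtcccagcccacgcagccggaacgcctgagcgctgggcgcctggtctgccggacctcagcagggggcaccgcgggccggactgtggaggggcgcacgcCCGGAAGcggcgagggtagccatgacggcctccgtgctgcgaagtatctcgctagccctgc
MRPL22: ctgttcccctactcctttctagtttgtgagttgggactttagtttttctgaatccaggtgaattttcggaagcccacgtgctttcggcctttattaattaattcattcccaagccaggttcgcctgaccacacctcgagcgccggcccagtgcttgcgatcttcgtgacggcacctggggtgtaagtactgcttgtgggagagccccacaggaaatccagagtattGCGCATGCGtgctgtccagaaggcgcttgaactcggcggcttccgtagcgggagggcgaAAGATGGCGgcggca
MRPS27: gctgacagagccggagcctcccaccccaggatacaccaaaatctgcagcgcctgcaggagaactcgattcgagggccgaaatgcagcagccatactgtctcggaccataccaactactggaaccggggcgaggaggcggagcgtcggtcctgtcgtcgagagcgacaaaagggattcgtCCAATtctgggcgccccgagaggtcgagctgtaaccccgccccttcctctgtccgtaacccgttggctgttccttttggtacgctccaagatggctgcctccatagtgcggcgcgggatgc
MRPS25: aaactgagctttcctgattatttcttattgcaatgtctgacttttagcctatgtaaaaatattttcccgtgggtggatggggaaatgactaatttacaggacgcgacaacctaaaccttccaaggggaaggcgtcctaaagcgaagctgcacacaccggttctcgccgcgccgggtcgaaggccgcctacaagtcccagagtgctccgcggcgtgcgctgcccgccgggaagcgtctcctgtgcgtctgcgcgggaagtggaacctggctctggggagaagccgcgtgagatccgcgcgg

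Motif counts were also set beside the library pattern. Of the 44 members with a promoter that were above the other 6 libraries in replicate 1 at both later times, 20 (45.5%) held the ETS motif and 9 (20.5%) the YY1 motif. Of the 22 tested members with a promoter that were not, 8 (36.4%) held the ETS motif and 3 (13.6%) the YY1 motif. The difference between these shares was not tested.

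Genes that act with the mitochondrial ribosome were counted from lists of the same fit. None of them passed the threshold in the comparisons with control or in later over earlier. The 7 other named subunits had a median log2 fold change, later over earlier, of 0.24, the 15 mitochondrial translation factors 0.20, the 17 genes of mitochondrial DNA expression 0.20, the 25 assembly factors tested 0.10 and the 10 regulators of mitochondrial biogenesis tested 0.07. The medians over control at 3 days were 0.53 and -0.14 for the other subunits, 0.31 and 0.01 for translation factors, 0.36 and -0.04 for mitochondrial DNA expression, 0.22 and -0.11 for assembly factors and 0.02 and 0.14 for the regulators in replicates 1 and 2. At 7 days the medians in replicates 1 and 2 were 0.39 and 0.12 for the other subunits, 0.38 and 0.02 for translation factors, 0.35 and -0.01 for mitochondrial DNA expression, 0.01 and -0.03 for assembly factors and 0.02 and 0.08 for the regulators. Replicate 1 was thus the higher at both times for the first 3 of these lists and at neither time for the regulators, while for assembly factors both medians were near 0 at 7 days. The 77 tested genes of the cytosolic ribosome had medians of 1.46 and 0.16 at 3 days and 1.41 and 0.29 at 7 days in replicates 1 and 2, and the difference from the mitochondrial set was not tested.

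Of the 15 genes of these lists with the smallest p (up to 3 a list), 12 had a log2 fold change, later over earlier, above 0 and 3 below 0. TUFM, the mitochondrial elongation factor that brings aminoacyl-tRNA to the ribosome, had 158 and 88.9 CPM at 3 days and 155 and 98.1 CPM at 7 days, against 99.5 and 75.9 CPM in control cells. TFAM, which packages mitochondrial DNA and starts its transcription, had 339 and 219 CPM at 3 days and 393 and 211 CPM at 7 days, against 196 and 204 CPM in control cells. NOA1, a GTPase of ribosome assembly, had 82.3 and 31.4 CPM at 3 days and 73.0 and 37.6 CPM at 7 days, against 32.4 and 28.2 CPM in control cells. In NOA1 and TFAM replicate 2 at each later time was near the controls. The 3 genes below 0 were MTERFD2, PNPT1 and PPARGC1B. MTERFD2, an assembly factor of the large subunit, had 41.1 and 49.3 CPM at 3 days and 37.7 and 44.6 CPM at 7 days, against 54.6 and 53.8 CPM in control cells, with a log2 fold change, later over earlier, of -0.42 ± 0.15 (SE) and an adjusted p of 0.314 in the edgeR test. PNPT1, a mitochondrial RNA-degrading enzyme, had 82.8 and 143 CPM at 3 days and 82.2 and 161 CPM at 7 days, against 152 and 173 CPM in control cells. PNPT1 was lowest in the libraries numbered 1. PPARGC1B, a coactivator of mitochondrial biogenesis, had 79.9 and 83.0 CPM at 3 days and 79.96 and 85.3 CPM at 7 days, against 113 and 105 CPM in control cells and 117 and 107 CPM at 24 h. Its replicates were close, with a log2 fold change, later over earlier, of -0.43 ± 0.13 (SE) and an adjusted p of 0.271 in the edgeR test.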

How the data were processed

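The deposited values are raw read counts per gene symbol, 1 table per library, with no normalization, per the file headers and values. Per the submitters' processing notes, the tools were Bowtie2, Trim Galore, SAMtools, R 3.2.3 and DESeq2 1.8.1, and the build was GRCh37 (hg19). How reads were counted, with which strand setting and annotation, is not given in the sources used here. Per the labels' protocols, libraries had 15 PCR cycles and were read as 150-base pairs. The 5 summary entries that name no gene (42.6% to 57.5% of reads) were left out. Depth limits genes with few counts, such as MRPL54.

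From the counts, edgeR 4.0.16 (R 4.3.3) kept 12536 genes (filterByExpr, minimum count 10, minimum total 15), scaled them by TMM and fitted the quasi-likelihood test to the 8 libraries jointly, with group as the only term. The biological coefficient of variation was 0.276. A gene was called when its p, adjusted by Benjamini-Hochberg over the genes tested, was under 0.05. Standard errors come from the F statistic, and log2 CPM used a prior count of 2. Levels per kilobase and the length and GC trend used GENCODE transcripts of GRCh38, matched by symbol, from which no position is given. Promoters and overlaps come from RefSeq tables. The NRF1 motif was searched first with 10 bases and shortened to 9 after that count was seen, and both counts are given. The procedure was tested on simulated data, and how often it recovered changes as small as those of most members is not given here.

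The members and lists were chosen with earlier results of these data known. Genes were named by a rule: in each comparison with control and in later over earlier, the 6 members without overlap with the smallest p; the 3 highest and 3 lowest by CPM; 2 per subunit class by the joint test; the MRPS18 paralogs; and up to 3 per other list. MRPS25, MRPS28, MRPL27, MRPS12, MRPL49, MRPL19 and MRPS23 were singled out after their values were seen. Alternatives were other scalings, filters and tools, a length and GC trend, a replicate block and leaving out each library.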

Additional observations from a re-analysis of the deposited data

Results flagged for a closer look

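In 4 members, MRPL53, MRPS18A, MRPL23 and MRPL32, both 24 h libraries lay below both controls and both libraries of a later group above both controls. The difference between the 2 effects was taken from the edgeR fit. The 4 genes were picked for these same values, so the size of the differences follows from the choice and is no separate evidence. The share of all genes with this pattern was not counted. MRPL53 had 20.6 and 16.6 CPM at 3 days, against 10.5 and 10.8 CPM at 24 h, a log2 fold change of 0.81 ± 0.26 (SE) with an adjusted p of 0.757. MRPS18A had 14.4 and 10.2 CPM at 3 days, against 7.64 and 7.63 CPM at 24 h, a log2 fold change of 0.68 ± 0.31 (SE) with an adjusted p of 0.757. MRPL23 had 73.8 and 40.6 CPM at 7 days, against 23.9 and 28.5 CPM at 24 h, a log2 fold change of 1.13 ± 0.39 (SE) with an adjusted p of 0.736. MRPL32, a large subunit protein with a bacterial counterpart, had 47.6 and 24.5 CPM at 7 days, against 19.6 and 20.4 CPM at 24 h, a log2 fold change of 0.85 ± 0.45 (SE) with an adjusted p of 0.736. None of these differences passed the threshold. For MRPL32, replicate 2 at 7 days lay only just above the higher control library, which had 24.4 CPM.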

How the results depend on the processing

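The members' median kept its direction at 3 days, at 7 days and in later over earlier under every alternative run. At 24 h it changed sign only when single libraries were left out, and in 7 over 3 days it lay near 0 and took either sign. Leaving out 1 library at a time, it ran from -0.19 to 0.09 for 24 h over control, 0.05 to 0.60 for 3 days, 0.04 to 0.53 for 7 days, -0.30 to 0.21 for 7 over 3 days and 0.19 to 0.48 for later over earlier. The number of genes called in later over earlier, 1 of 12536, was 0 without any single library and also 0 without both late libraries numbered 1. With all genes having a count kept (no filter), 18243 genes were tested. Of these, 11 were called at 3 days, 16 at 7 days, 489 in later over earlier and 67 in the joint test. Among the 489 were 4 of the 75 members: MRPL10, MRPL11, MRPL22 and MRPL23. DESeq2 called 9, 15, 277 and 65 genes in these comparisons and 0 members. The cause was not tested.

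Replicate numbers did not pair the libraries of all groups: across 12536 genes the within-group replicate difference correlated at 0.81 between 7 and 3 days, at 0.34 and 0.32 between these and control, and at -0.60 between 24 h and control, -0.32 between 3 days and 24 h and -0.31 between 7 days and 24 h. With the replicate block, 1 gene and 0 members were called in later over earlier, and the members' median was 0.33. Crossed numbers for the block were chosen after seeing the data. With them, 6 genes were called at 3 days, 5 at 7 days and 15 in the joint test. In later over earlier, 1101 of 12536 genes and 8 of 75 members were called, MRPL11 and MRPS27 among the members. The adjusted p of MRPL11 in later over earlier ran from 0.0206 to 0.763 over the alternatives. Of 449 alternative fits of 24 results for named members, 446 kept the side of the threshold and direction, 3 passed the threshold and 0 reversed. Values of MRPL54 and MRPS26, the lowest members, rest on few counts, and whether depth limits the other members was not tested.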
